A study of Homo sapiens with 6 samples.

Results

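The genes described here write, copy and erase cytosine methylation in DNA. They are a set of named enzymes, taken by symbol with no threshold on a measured value, although earlier results of these data were known when the set was drawn up: DNMT1, DNMT3A, DNMT3B, UHRF1, TET1, TET2, TET3, TDG, IDH1 and IDH2, 10 of the 23698 gene rows. Each symbol occurred in 1 row, and 9 of the 10 passed the filter on low counts, TET1 being the exception. The study measured poly(A) RNA by sequencing in MV4-11, an established acute myeloid leukaemia line with an internal tandem duplication in the receptor kinase FLT3 and a rearranged MLL gene. One group of 3 libraries came from cells with a lentiviral hairpin that targets PRMT5, an arginine methyltransferase. The other 3 came from cells carrying a scrambled hairpin, so all cells were stably transduced with lentivirus and grown in the same medium. How many hairpins or transduced pools stand behind each group is not given in the sources used here.

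DNMT3A and DNMT3B place methyl groups on unmodified CpG sites, whereas DNMT1, guided by UHRF1 to the newly copied strand, restores the pattern after DNA replication. TET1, TET2 and TET3 oxidise 5-methylcytosine, and TDG cuts out some of the oxidised bases so that base excision repair can put back plain cytosine. The TET enzymes need alpha-ketoglutarate, which IDH1 and IDH2 make, and mutant IDH proteins instead make 2-hydroxyglutarate, which inhibits them. DNMT3A, TET2, IDH1 and IDH2 are among the genes most often mutated in acute myeloid leukaemia. Levels are given below in CPM (counts scaled to a library of 1000000, with TMM factors). Log2 differences subtract control from knockdown and come from 1 edgeR quasi-likelihood fit over 13668 genes, with Benjamini-Hochberg adjustment over all of them and a threshold of 0.05.

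A microRNA family is shown first because its known targets include several of these genes. miR-29 is known to repress DNMT3A, DNMT3B and the transcription factor SP1 in myeloid leukaemia, and TET genes and TDG have also been reported as its targets. The mature RNAs (RefSeq, GRCh38.p14) come from genes at chr7:130876748-130876769 and chr7:130877467-130877489 (MIR29A and MIR29B1, minus strand) and at chr1:207801865-207801886 and chr1:207802450-207802472 (MIR29C and MIR29B2, minus strand). Capitals mark the seed, bases 2 to 8, which is the same in all.
miR-29a-3p: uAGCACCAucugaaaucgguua
miR-29b-3p: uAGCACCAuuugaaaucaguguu
miR-29c-3p: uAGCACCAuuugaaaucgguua

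The match to this seed in a transcript reads TGGTGCT. It was searched on the sense strand in the longest annotated 3′ UTR of each gene (GENCODE v29, GRCh38). It occurred in 6 of the 10 genes: 10 times in TET3, 4 times in DNMT3A, 3 times each in TET1 and TDG, and once each in DNMT3B and TET2. DNMT1, UHRF1, IDH1 and IDH2 had no match. Over 19133 protein-coding genes 14.4% had a match, and 0.481% had at least 3. Long UTRs hold more matches, so genes with a UTR of like length (the shorter at least 0.8 times the longer) are the closer comparison. Among those, the gene itself included, 0.103% had as many matches as TET3, 0.842% as many as DNMT3A, 0.548% as many as TET1 and 0.285% as many as TDG, against 13.7% for DNMT3B and 38.1% for TET2. The first match in each of the 6 is shown, on the strand of the gene, with the match in capitals. All lie in 3′ UTR sequence, at chr2:74102218-74102246 (TET3), chr2:25233400-25233428 (DNMT3A), chr10:68692086-68692114 (TET1), chr12:103987091-103987111 (TDG), chr20:32809094-32809122 (DNMT3B) and chr4:105242300-105242328 (TET2), all in GRCh38.
TET3: agctgtctctgTGGTGCTtttgccctcat
DNMT3A: cgacttcataaTGGTGCTttcaaacagcg
TET1: atcactcagttTGGTGCTttaaattaagt
TDG: gaaTGGTGCTtctcagctctg
DNMT3B: actcttcttacTGGTGCTattttgtagaa
TET2: caagcagtaggTGGTGCTttggtcataag

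A match describes letters and is not a shown binding site. The libraries did not read out the microRNA itself: MIR29A and MIR29B1 held 0 counts in every library, MIR29B2 at most 1.10 and MIR29C at most 8.33.

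Library totals ran from 16408484 to 19077106 estimated counts. PRMT5, the gene targeted, was at 103, 71.6 and 52.99 CPM in knockdown 1 to 3. Controls 1 to 3, as labelled, held 133, 53.2 and 158 CPM. PRMT5 in the library labelled control 2 was thus as low as in the lowest knockdown library, against its label. The log2 difference of PRMT5 was −0.60 (SE 0.43, edgeR adjusted p = 0.926). Across genes, log2 CPM in the library labelled control 2 correlated at 0.877 to 0.923 with the other 5, while knockdown 3 and control 3 correlated at 0.995. The differences of the 9 tested members are therefore also given without the library labelled control 2. For partner genes and lists some values with 1 library left out are given, and these are not always the largest moves. PRMT5 itself was at −0.94 without that library and at −0.29 without control 3. Myeloid identity markers were present (9 of 10 at 1 CPM or more in every library). Their levels differed in the library labelled control 2. There LYZ (35.3 CPM, 430 to 1268 elsewhere), MPO (13.8 CPM), SPI1 (121 CPM) and CD14 (0.389 CPM) were at their lowest. HOXA9 (296 CPM, 78.5 to 96.2 elsewhere), MEIS1 (102 CPM) and ITGAM (115 CPM, 16.4 to 85.2 elsewhere) were at their highest. FLT3, CD33 and CSF1R lay within the range of the other libraries. Of 5 B cell markers only PAX5 reached 1 CPM, and of 5 epithelial markers KRT18 and KRT8 did, both highest in the library labelled control 2 (24.5 and 27.6 CPM). Of 5 fibroblast markers LUM (up to 3.04 CPM) and COL1A1 (4.99 CPM in the library labelled control 2, at most 0.340 elsewhere) reached 1 CPM, and of 5 erythroid markers ALAS2 did in the library labelled control 2 (1.10 CPM). The part of these genes in the results was not tested. None of 5 T cell markers reached 1 CPM in any library, and EPCAM, COL1A2, COL3A1 and the globin genes HBB, HBA1 and HBA2 were at 0 throughout.

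None of the 9 tested genes passed the test between knockdown and control. The number with an edgeR adjusted p under 0.05 was 0, as it was for all 13668 genes (0%). None had an unadjusted p under 0.05, which 1.77% of all genes had. In none did the 3 knockdown libraries lie on one side of the 3 controls, which held for 6.24% of all genes. By the sign of the difference, 5 were above and 4 below the control level, beside 49.9% of all genes above it. The differences ran from −0.65 for TET2 to 0.35 for TET3, with a median of 0.14 beside −0.00069 over all tested genes. DESeq2 and limma-voom also called 0 genes, with 461 and 117 at an unadjusted p under 0.05.

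**Figure D1:**
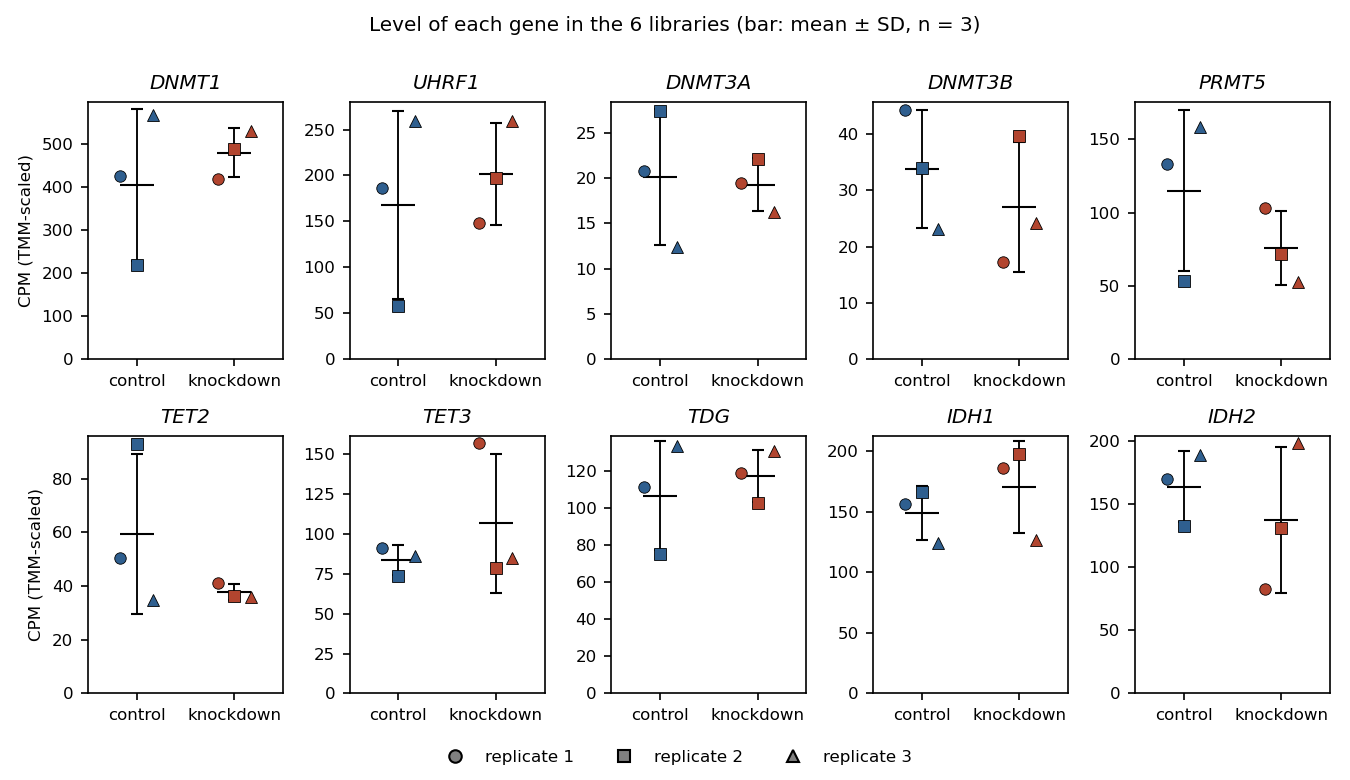
Level of the 9 tested genes and of PRMT5 in TMM-scaled CPM (linear axes from 0), by group; symbols are the replicate numbers of the labels, and bars are the mean ± SD of 3 libraries. The square in the control column, the library labelled control 2, is the lowest of 6 for DNMT1, UHRF1, TET3 and TDG and the highest for DNMT3A and TET2.

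The maintenance enzyme gene DNMT1, on chromosome 19, was at 418, 488 and 531 CPM in knockdown 1 to 3. Controls 1 to 3, in the same unit, stood at 426, 218 and 568 CPM. The groups overlapped, and the library labelled control 2 lay below the other 5. The means were 479 ± 56.9 and 404 ± 176 CPM (SD, n = 3 each), a log2 difference of 0.25 (SE 0.35, 95% confidence interval −0.57 to 1.06, edgeR adjusted p = 0.926). Without the library labelled control 2 the difference turned to −0.051 (95% confidence interval −0.55 to 0.44).

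UHRF1, also on chromosome 19, encodes the protein that binds hemimethylated CpG and brings DNMT1 to it. The knockdown libraries had UHRF1 levels of 149, 197 and 259 CPM, and the controls 186, 57.5 and 259 CPM. The 5 other libraries lay between 149 and 259 CPM, and the library labelled control 2 was below all of them. UHRF1 had the widest spread of the 9, with an SD of 0.81 in log2 CPM over the 6 libraries, wider than in 86.9% of all tested genes. The log2 difference was 0.27 (SE 0.50, 95% confidence interval −0.91 to 1.44, edgeR adjusted p = 0.930). It was −0.14 without the library labelled control 2.

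DNMT3A, a de novo methyltransferase gene on chromosome 2, was low. Knockdown levels were 19.5, 22.1 and 16.2 CPM, and control levels 20.8, 27.4 and 12.4 CPM. The lowest and the highest value were both controls, so the knockdown range lay inside the control range. The means were 19.3 ± 2.95 and 20.2 ± 7.51 CPM (SD, n = 3 each), and the log2 difference was −0.065 (SE 0.33, 95% confidence interval −0.83 to 0.70, edgeR adjusted p = 0.976). The sign turned under total-count scaling (0.0048), with limma-voom (0.0087) and without the library labelled control 2 (0.22).

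DNMT3B, the other de novo enzyme gene, on chromosome 20, had knockdown levels of 17.2, 39.7 and 24.2 CPM. The controls held 44.2, 34.0 and 23.1 CPM. The libraries numbered 1 stood at the 2 ends of this range, knockdown 1 lowest and control 1 highest. The log2 difference was −0.32 (SE 0.38, 95% confidence interval −1.20 to 0.55, edgeR adjusted p = 0.926). Leaving out the library labelled control 2 left it at −0.31. Leaving out knockdown 1 left −0.085, and leaving out control 1 left −0.080. It was −0.70 without knockdown 2 and −0.53 without control 3.

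Of the oxidases, TET1 on chromosome 10 was close to undetected, with 4, 4 and 1 counts in the knockdown libraries and 2, 1 and 2 in the controls. These values are at or next to a floor of 3 counts, so no fold is given and no test was made.

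TET2, on chromosome 4, had the largest difference of the 9 in either direction. The knockdown libraries held 41.3, 36.1 and 35.8 CPM. The controls held 50.5, 92.8 and 35.0 CPM. The knockdown values were close together, control 3 was just below them, and the library labelled control 2 was far above every other. The means of 37.8 ± 3.07 and 59.4 ± 29.9 CPM (SD, n = 3 each) gave a log2 difference of −0.65 (SE 0.36, 95% confidence interval −1.49 to 0.18, edgeR adjusted p = 0.926, unadjusted p = 0.108). By unadjusted p TET2 ranked 1038 of 13668 genes. Without the library labelled control 2 the difference was −0.18 (95% confidence interval −0.69 to 0.34), and it was lower in the knockdown under each of the 15 alternatives tried.

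TET3, on chromosome 2, had knockdown levels of 157, 78.4 and 84.7 CPM and control levels of 91.4, 73.5 and 86.4 CPM. Knockdown 1 stood alone, and the other 5 libraries lay between 73.5 and 91.4 CPM. The log2 difference was 0.35 (SE 0.30, 95% confidence interval −0.36 to 1.06, edgeR adjusted p = 0.926), and it was −0.043 without knockdown 1 and 0.27 without the library labelled control 2.

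TDG, the thymine DNA glycosylase gene on chromosome 12, was at 119, 103 and 131 CPM against 111, 75.1 and 133 CPM. The library labelled control 2 was again the lowest. The log2 difference was 0.14 (SE 0.26, 95% confidence interval −0.46 to 0.74, edgeR adjusted p = 0.929) and turned to −0.057 without that library. Antisense genes are annotated over TET2 (TET2-AS1) and TET3, S1PR2 overlaps DNMT1 on its own strand, and the use of strand in counting is not stated. TDG has an annotated pseudogene, TDGP1, so its reads may have been shared.

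The dehydrogenase gene IDH1, which encodes the cytosolic enzyme and lies on chromosome 2, was the steadiest of the 9. Its knockdown levels were 186, 198 and 127 CPM and its control levels 156, 166 and 124 CPM, with the smallest SD over the 6 libraries (0.28 in log2 CPM). The libraries numbered 3 were the lowest of both groups. The log2 difference was 0.19 (SE 0.24, 95% confidence interval −0.37 to 0.76, edgeR adjusted p = 0.926), and 0.28 with the library labelled control 2 left out. An antisense gene, IDH1-AS1, overlaps IDH1 in the annotation; its own row held 3 to 16.6 counts a library, against 2343 to 3566 for IDH1.

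IDH2, which encodes the mitochondrial enzyme and lies on chromosome 15, had knockdown levels of 83.0, 131 and 198 CPM. The controls held 169, 133 and 188 CPM. Knockdown 1 was the lowest library and knockdown 3 the highest, so the control values lay within the knockdown range. The log2 difference was −0.25 (SE 0.33, 95% confidence interval −1.03 to 0.52, edgeR adjusted p = 0.926). Without the library labelled control 2 it was −0.38, without knockdown 1 it was 0.0026, and without knockdown 3 it was −0.62.

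**Figure D2:**
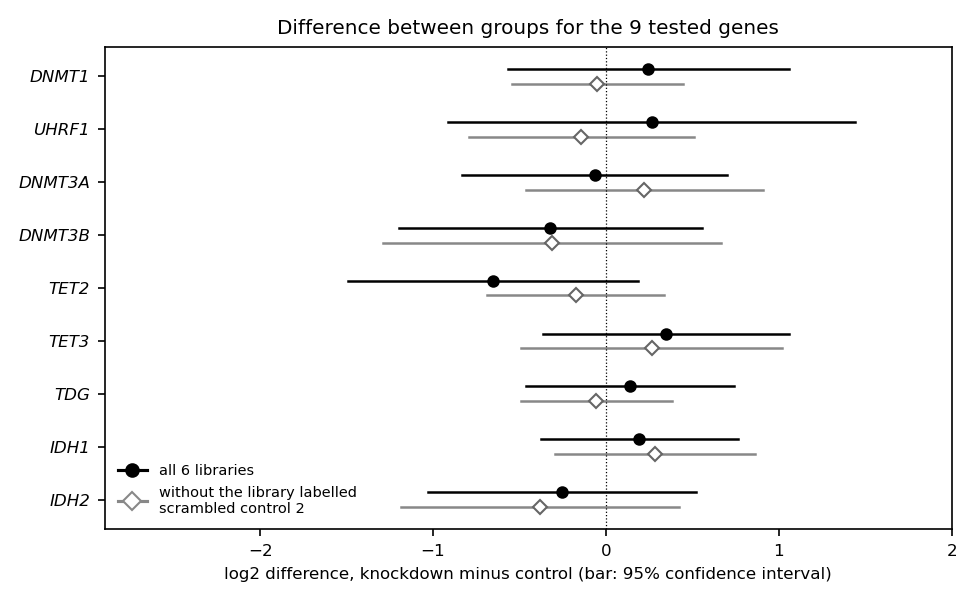
Log2 difference (knockdown minus control, edgeR) of the 9 tested genes with 95% confidence intervals, over all 6 libraries (filled) and without the library labelled control 2 (open). Every interval includes 0, and TET2 moves from −0.65 to −0.18.

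The width of these intervals says what sizes remain possible. For TET2 the 95% confidence interval spanned 0.356 to 1.14 times the control level, and for UHRF1 0.531 to 2.72 times. For IDH1, the narrowest, it spanned 0.771 to 1.70 times. A difference that did not pass the test is therefore not shown to be absent.

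The library labelled control 2 stood apart from the other controls for some of the genes but not for all. It lay outside the range of the other 5 libraries for 6 of the 9 genes, below for DNMT1, UHRF1, TET3 and TDG and above for DNMT3A and TET2. The same held for 71.1% of all tested genes, and 6 of 9 is near that share. Against the mean of controls 1 and 3, its UHRF1 level was 0.258-fold and its DNMT1 level 0.439-fold, while TET2 was 2.17-fold and DNMT3A 1.65-fold. DNMT3B, IDH1 and IDH2 lay within the range of the other libraries.

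Libraries with the same number gave different answers in the 3 pairs. In pair 1 the log2 CPM difference was −1.35 for DNMT3B, −1.03 for IDH2 and 0.78 for TET3. In pair 2 it was 1.77 for UHRF1, 1.16 for DNMT1 and −1.36 for TET2, and PRMT5 was higher by 0.43 in the knockdown library. Pair 3 was the one with the lowest PRMT5 relative to its control, −1.58. There, 8 of the 9 genes differed by under 0.1, DNMT3A being the exception at 0.39. Of all tested genes 51.3% differed by under 0.1 in pair 3, whose libraries were alike throughout. UHRF1 was at 259 CPM in both of them.

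**Figure D3:**
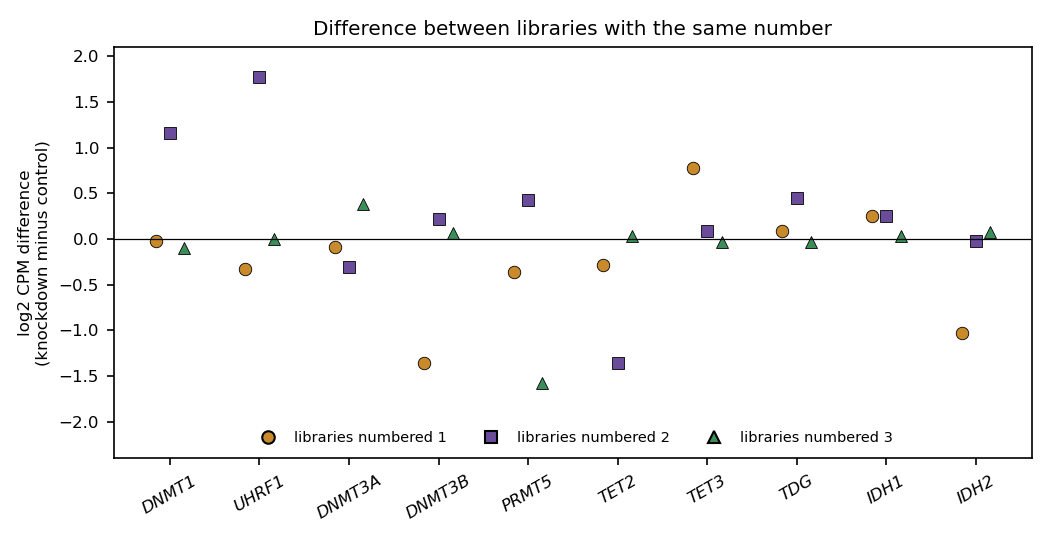
Log2 CPM difference (knockdown minus control) between libraries with the same number, 1 point per pair. In pair 3 (triangles) PRMT5 lies at −1.58, while DNMT1, UHRF1, DNMT3B, TET2, TET3, TDG, IDH1 and IDH2 lie within 0.1 of 0.

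Some of the 9 genes varied together over the 6 libraries. Likeness was measured as the root-mean-square distance between log2 CPM profiles centred on their own means, over 6 libraries; these distances describe the libraries, which differ mainly by the one labelled control 2. The nearest 2 members were DNMT1 and TDG (0.224), followed by DNMT3A and IDH1 (0.242) and by DNMT1 and UHRF1 (0.294). Genes that vary little, as IDH1 did, lie near others by this measure even when little of their variation is shared. Pearson r of the same profiles was 0.927, 0.735 and 0.99 in that order. DNMT1 and TET2 ran in opposite directions (r = −0.976). Among 13037 other genes averaging 1 CPM or more, those nearest UHRF1 were MYBL2 (0.0742), a transcription factor of the cell cycle, MCM7 (0.0912), a subunit of the replicative helicase, and C16orf59 (0.0956). The median distance of a gene from UHRF1 was 0.781. Nearest DNMT1 were SLC29A1, TMPO and TRMT2A (0.0459 to 0.0581, median of all genes 0.534). Nearest DNMT3B were ITGB7, INPP4B and LOC654342 (0.103 to 0.120, median 0.595), and nearest TET2 were LOC100507346, FLCN and ATHL1 (0.0397 to 0.0496, median 0.600).

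UHRF1 and DNMT1 are known as genes of dividing cells, so a list of 15 S phase genes was read in the same libraries. The list also holds MKI67 and TOP2A, genes of dividing cells that are not confined to S phase. The median of all 15, relative to the mean of the 6 libraries, was −1.16 in the library labelled control 2. It was −0.39, 0.31 and 0.45 for knockdown 1 to 3, then 0.12 (control 1) and 0.63 (control 3). UHRF1 followed the same order except that control 3 and knockdown 3 were level, at −1.53, −0.16, 0.24, 0.64, 0.17 and 0.64 in the same sequence. Over all libraries 11 of the 15 S phase genes were higher in the knockdown (median log2 difference 0.18, and 0.024 without knockdown 3). Without the library labelled control 2, 13 of 15 were lower, and without both libraries numbered 2 all 15 were lower, where 50.5% of all genes were. No S phase gene passed the test in either setting. In bulk RNA, fewer cells in S phase and less RNA per cell cannot be told apart. The part of S phase level in the UHRF1 and DNMT1 values was not tested.

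**Figure D4:**
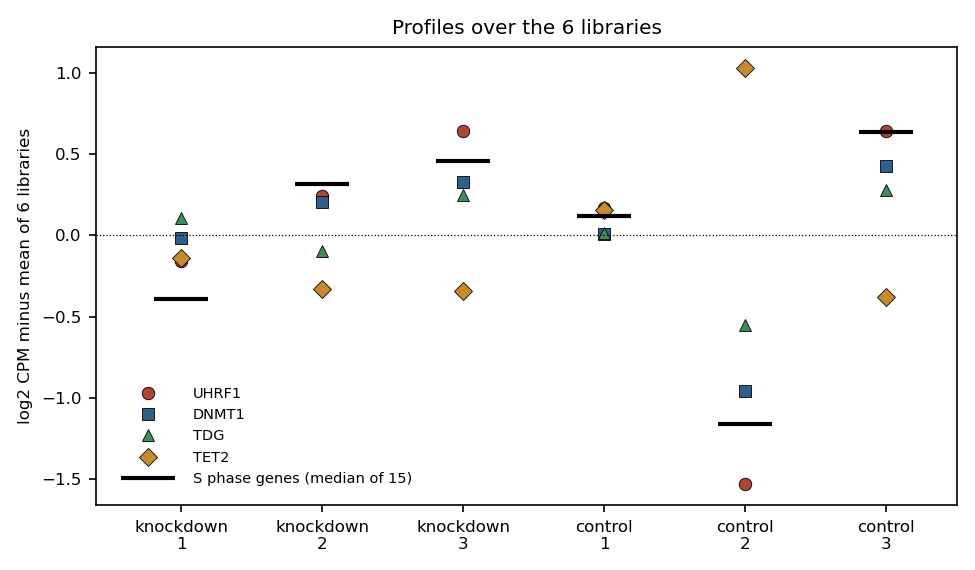
Log2 CPM of UHRF1, DNMT1, TDG and TET2 minus the mean of the 6 libraries, by library, with the median of 15 S phase genes (bars). In the library labelled control 2 the S phase median is −1.16, UHRF1 −1.53 and DNMT1 −0.96, while TET2 is at 1.03.

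Start-site sequence of the genes was read beside this (RefSeq, GRCh38.p14, 300 bases per annotated start, 250 before and 50 after). The E2F-type motif was searched as TTTCCCGC, TTTCGCGC, TTTGCCGC and TTTGGCGC on both strands. Of the 10 genes, DNMT1 (at its 1 start) and UHRF1 (at 2 of its 3 starts) held it. Of 35116 promoters of this length 3.31% held it, a share per start and not per gene. A gene with several starts has more windows in which a match can fall. The 3 stretches are shown because these 2 genes varied together; each is 30 bases with the motif in capitals, at chr19:10194937-10194966 (DNMT1, minus strand, across the start site), chr19:4909476-4909505 (UHRF1, plus strand, motif from 14 bases before a start site) and chr19:4909973-4910002 (UHRF1, plus strand, motif from 160 bases before another).
DNMT1: catcggtttccGCGCGAAAagccggggcgc
UHRF1 first: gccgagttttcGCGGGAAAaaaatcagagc
UHRF1 second: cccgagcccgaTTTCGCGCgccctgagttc

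In the DNMT1 stretch and the first UHRF1 stretch the motif is on the opposite strand. These are matches of letters only, and nothing here shows that a factor binds them. TDG also varied with DNMT1 (r = 0.927) and UHRF1 (r = 0.926), and its window held no E2F-type match. The GC box, GGGCGG on either strand, which SP1 can bind, was in 45.0% of all promoters, again a share per start. It occurred in windows of DNMT3A, TET2, TET3, IDH1 and UHRF1 and in none of DNMT1, DNMT3B, TET1, TDG or IDH2. CpG counts ranged from 3 for DNMT3B to 46 for 1 start each of DNMT3A and UHRF1, beside a median of 14 over all promoters.

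Levels of different genes were compared only per length, as CPM per kilobase of the longest annotated transcript. DNMT1 was the most abundant, with a median of 84.5 CPM per kb over the 6 libraries (range 40.3 to 105). IDH1 (66.0), IDH2 (56.1), UHRF1 (44.5) and TDG (35.4) followed, and the ranges of neighbours in this order overlapped. TET3 was next at 7.52 CPM per kb (range 6.46 to 13.8), below every TDG value (23.1 to 41.0), although UHRF1 in the library labelled control 2 was at 13.4. DNMT3B (6.71) and TET2 (3.81) overlapped with it. DNMT3A was at 2.12 CPM per kb, its range of 1.30 to 2.88 lying below the lowest TET2 value of 3.44, and TET1 was at 0.0117. With the median transcript length in place of the longest, the same 5 genes (TET3, DNMT3B, TET2, DNMT3A and TET1) were the lower 5, but DNMT3A then stood above TET2 (5.61 against 4.10), IDH2 above IDH1 and TDG above UHRF1.

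**Figure D5:**
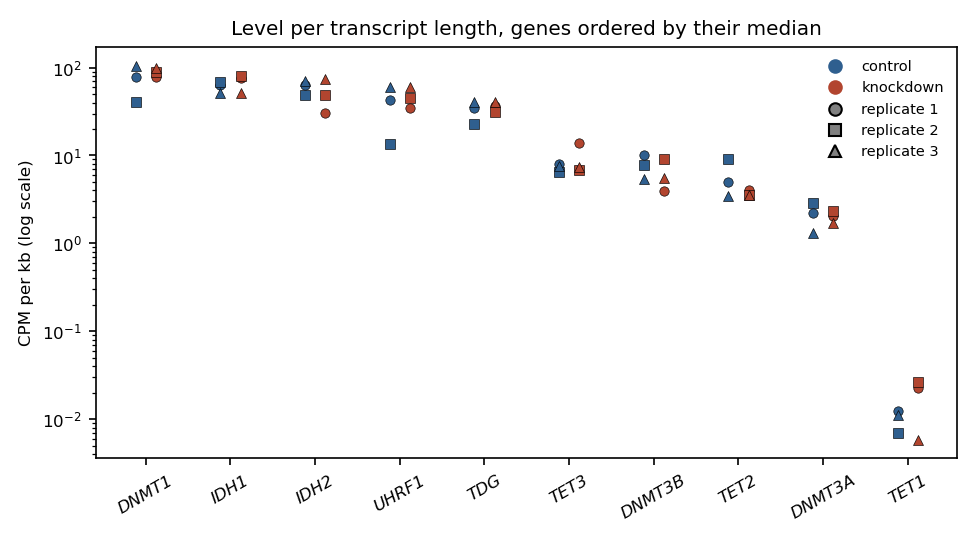
CPM per kilobase of the longest annotated transcript (log axis) for the 10 genes in each library, ordered by their median. The medians of DNMT1, IDH1, IDH2, UHRF1 and TDG lie between 35.4 and 84.5 CPM per kb, and that of TET1 is 0.0117.

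Partner genes of each step were described from lists. None of them had a member with an unadjusted p under 0.05, and each list's median is to be read beside −0.00069 for all genes. Of 12 partners of DNMT1, DNMT3A, DNMT3B and UHRF1, 8 were higher and 4 lower (median log2 difference 0.068, but 0.012 without the library labelled control 2 and −0.017 without knockdown 3). The median was 0.24 without control 3. PCNA, the replication clamp, had knockdown levels of 280, 319 and 305 CPM and control levels of 215, 107 and 304 CPM. Only the value of knockdown 1 lay below a control, so the groups overlapped through control 3; the log2 difference was 0.53 (SE 0.36). It was 0.22 without the library labelled control 2 and 0.91 without control 3. UHRF2, the paralog of UHRF1, had −0.39 (SE 0.23), and −0.27 without the library labelled control 2. Among 7 methyl-CpG readers 3 were higher and 4 lower (median −0.028), with MBD3 at 0.35 and ZBTB4 at −0.38. MBD3 was at 0.0049 and ZBTB4 at −0.14 without the library labelled control 2. The list median turned to 0.073 without control 1.

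Downstream of TDG, 10 of 13 tested base excision repair genes were higher and 3 lower (median 0.13), and 7 were higher without the library labelled control 2 (median 0.043). Without control 3, 8 were higher and the median was 0.25. NEIL2, a DNA glycosylase gene, was below every control in all 3 knockdown libraries, at 17.2, 20.3 and 19.8 CPM against 21.7, 58.9 and 22.4 CPM, as were 3.1% of all genes. Its log2 difference was −0.84 (SE 0.41) and fell short of the threshold (edgeR adjusted p = 0.926); it was −0.20 without the library labelled control 2. POLB, the repair polymerase gene, had −0.58 (SE 0.32), and −0.23 without that library. Of 8 tested TET partners 7 were higher (median 0.14), with PSPC1 at 0.32 and DDB1 at 0.22. With the library labelled control 2 left out, 5 of 8 were higher (median 0.036), and PSPC1 was at 0.11 and DDB1 at 0.069.

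On the metabolite side, 13 of 18 tested genes of alpha-ketoglutarate metabolism were higher and 5 lower (median 0.063). This direction depended on the library left out: 8 of 19 were higher without the library labelled control 2 (median −0.055), and 8 of 18 without knockdown 3 (median −0.067). Without control 3, 14 of 18 were higher (median 0.25). D2HGDH, whose product clears the D form of 2-hydroxyglutarate, had a log2 difference of −0.58 (SE 0.31), and −0.32 without knockdown 2. The difference was −0.86 without knockdown 3. D2HGDH had knockdown levels of 42.7, 24.3 and 54.9 CPM and control levels of 67.0, 62.7 and 52.9 CPM, and only knockdown 3 and control 3 made the groups overlap. GLUD1 and GOT1, which make or use alpha-ketoglutarate, were higher in all 3 knockdown libraries than in any control, as were 3.14% of all genes, with log2 differences of 0.35 (SE 0.20) and 0.80 (SE 0.47). They were 0.30 and 0.43 without the library labelled control 2, and GOT1 was at 0.46 without knockdown 1; both were named after their values were seen. For the S-adenosylmethionine and folate cycle, which supplies the methyl groups, 10 of 15 were higher (median 0.26, but 0.10 without the library labelled control 2 and 0.073 without knockdown 1). MTAP, which salvages methionine, had a log2 difference of 0.47 (SE 0.33), and 0.18 without the library labelled control 2.

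Of 8 regulators known to act on DNMT transcripts, 4 protein-coding genes were tested and the 4 miR-29 genes were not. Of those tested 2 were higher and 2 lower (median −0.089), and 1 was higher without the library labelled control 2. SP1 and SP3, zinc finger factors that bind GC boxes, were below every control in all 3 knockdown libraries, as were 3.1% of all genes, with log2 differences of −0.72 (SE 0.34, edgeR adjusted p = 0.926) and −0.25 (SE 0.20, edgeR adjusted p = 0.926). SP3 was named after its values were seen. The difference was −0.24 for SP1 and −0.12 for SP3 without the library labelled control 2. MYC had 0.70 (SE 0.49), with 1491, 556 and 600 CPM in the knockdown against 702, 285 and 647 CPM in the control libraries. It was 0.085 without knockdown 1 and 0.39 without the library labelled control 2.

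Genes whose silence or dosage is known to depend on DNA methylation were also read, although methylation itself was not measured in these libraries. Of 21 germline genes that promoter methylation keeps off in somatic cells, 13 had at most 3 counts in every library and 6 had 0; 3 were tested, and all 3 had a negative log2 difference (median −0.24). This turned without the library labelled control 2, with 2 of 3 higher (median 0.13). PRAME, an antigen gene of this kind that many myeloid leukaemias express, was at 0.261, 2.37 and 0.324 CPM against 2.33, 7.91 and 0.829 CPM. A single count equalled 0.0522 CPM in knockdown 1 and 0.0541 CPM in knockdown 3, so PRAME rested on few counts there. PRAME was lower in the knockdown library of each pair, but the groups overlapped through knockdown 2. The log2 difference was −1.91 (SE 1.07, edgeR adjusted p = 0.926). With 1 library left out it ran from −3.62 to −0.68, the last without the library labelled control 2. SYCP3 had −0.24 (SE 0.42), and 0.13 without that library. Of 9 tested imprinted genes 5 were higher and 4 lower (median 0.14), and the median was −0.12 without control 3 and 0.39 without the library labelled control 2. GRB10 had 0.69 (SE 0.39), and 0.24 without knockdown 1. CDKN1C had −3.03 (SE 1.42), resting on 25.4 CPM in the library labelled control 2 beside 0.363 to 1.46 CPM elsewhere, and 0.71 without it.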

How the data were processed

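Poly(A) libraries of 6 samples were sequenced, per the labels' protocols. The authors deposited estimated counts per gene, 1 table per library, not scaled to depth. CASAVA 1.9, TopHat2 version 2, edgeR and hg19 are named in the submitters' processing notes, without saying which did what. The counter, the gene models and whether strand was used: not given in the sources used here. Parts of reads were credited to genes: 40.3% to 42.29% of entries were whole (tolerance 1e-06). Values were rounded before any model. No label says that replicates were separate cultures, so a p-value reflects only how far these 6 libraries scatter, and that scatter may be technical. An exact permutation of 3 against 3 cannot give a p under 0.1 and was not used.

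Genes kept by filterByExpr (minimum count 10) were fitted with edgeR 4.0.16 in R 4.3.3 (TMM, glmQLFit, glmQLFTest, two-sided, group as the only term); SEs and 95% intervals come from that fit, and 2 was the prior count of log2 CPM. The edgeR script was tested on simulated data with less scatter than these libraries and no library set apart. That test therefore does not show what could be detected here. Alternatives were scaling by RLE, by upper quartile or by total counts, 2 other filters, DESeq2 1.42.0, limma-voom (limma 3.58.1), a replicate block, each library left out, and both libraries numbered 2 left out. To see whether shared replicate numbers pair the libraries, each gene's group mean was subtracted and the remainders were correlated between knockdown and control libraries. Same-numbered libraries gave r of 0.127, 0.394 and 0.566, all above a cut-off of 0.1. Knockdown 2 and control 1 were at 0.164, above the first of these. The other differently numbered combinations ran from −0.581 to −0.00906. Remainders within a group depend on each other, so these values do not settle whether the libraries are paired. The labels do not state a pairing. A pair here therefore means only libraries with the same number. The main fit did not use pairs, and the replicate block was an alternative to it. Lists were described by counts and medians, with no test. The members and lists were chosen with earlier results of these data known. Named were the members, PRMT5, the 2 smallest p per list, and the 3 nearest profiles of the 4 members with the largest spread; some genes under this rule are not reported here. RefSeq and GENCODE v29 sequences are of GRCh38, not the authors' build; all 10 symbols matched both.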

Additional observations from a re-analysis of the deposited data

How the results depend on the processing

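Under none of 15 alternatives did any of the 9 genes pass edgeR's, DESeq2's or limma-voom's threshold, and the smallest adjusted p was 0.524. The number of genes called over the whole table was 0 in every setting. With the replicate block it was also 0, with 436 genes at an unadjusted p under 0.05, and the block changed no call. DNMT3B, TET2 and IDH1 had the same sign in every setting; of 135 values for the 9 genes, 123 had the sign of the main fit and 12 did not. Without the library labelled control 2, DNMT1 was at −0.051, UHRF1 at −0.14, TDG at −0.057 and DNMT3A at 0.22, and without both libraries numbered 2, DNMT1 was at −0.067, UHRF1 at −0.13 and DNMT3A at 0.11. DNMT3A was at 0.0048 under total counts, 0.0087 with limma-voom and 0.044 without knockdown 3. Without knockdown 1, TET3 was at −0.043 and IDH2 at 0.0026. Leaving out 1 library at a time gave ranges of −0.051 to 0.57 for DNMT1, −0.14 to 0.72 for UHRF1, −0.32 to 0.22 for DNMT3A, −0.057 to 0.33 for TDG, −0.043 to 0.53 for TET3 −0.62 to 0.0026 for IDH2, −0.70 to −0.080 for DNMT3B, −0.92 to −0.18 for TET2, 0.074 to 0.37 for IDH1, −3.59 to 0.71 for CDKN1C and −0.49 to 0.13 for SYCP3. Among the 22 other named genes, PRMT5 included, 326 of 330 values had the same sign. All but PRMT5 were named by their p or after their values were seen in these data, so this steadiness is partly built in. CDKN1C (0.71, and 0.44 without both libraries numbered 2) and SYCP3 (0.13) turned without the library labelled control 2, and E2F1 (−0.039) without both libraries numbered 2. List medians moved by more than the spread between replicates for the imprinted genes (−0.43 with no count filter, −0.12 to 0.39 with 1 library left out), the DNMT regulators (−0.42 with no count filter), the base excision repair genes (−0.0053 without both libraries numbered 2) and the S-adenosylmethionine genes (0.044 in that setting, 0.073 to 0.27 with 1 library left out), and for the methyl-CpG readers (−0.12 to 0.073 with 1 library left out). The germline and alpha-ketoglutarate medians changed sign within that spread (0.13 and −0.055 without the library labelled control 2). The cause was not tested. At 1 to 4 counts per library, depth does not allow a comparison of TET1.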
